A study of Mus musculus with 6 samples.

Results

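Aldh1a3, Cck, Gast and Neurog3 are 4 genes that islet biology uses as signs of a β cell losing its mature identity. They were picked by name from the 44713 genes of the count table after their levels in db/db and db/m islets were known, so their difference between the groups is given here as a description and without a p-value. Aldh1a3 and Cck were among the 12760 genes that passed the filter on low counts, and they passed through their reads in db/db mice. Gast and Neurog3 did not pass it and are described by their counts.

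Islet RNA was sequenced from 3 db/db and 3 db/m males, each 10 weeks of age, with rRNA removed and 1 library per mouse. The db/db mice carry the db mutation of the leptin receptor gene Lepr on both chromosomes (Lepr-/- in the labels) and are a model of obesity with diabetes. The db/m mice were littermates with 1 mutant copy, although the labels call them wild type. The labels give the strain as C57BL/6 and the study's methods give db/db mice as BKS.Cg-Dock7m+/+Leprdb/Nju. The mutation is carried by all cells and removes the long, signalling form of the receptor while shorter forms stay, so the model is not limited to β cells. Islets were isolated with collagenase and a density gradient.

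The libraries held 15641797 to 20614531 counts on genes. The db mutation changes the splicing of Lepr, so that its gene count (4, 10 and 68 in db/db mice against 37, 25 and 8 in db/m mice) does not check the labels. The islet label was checked against defining markers. Ins1 and Ins2, the insulin genes, took 0.121%, 0.502% and 0.407% of the counts in db/db replicates 1 to 3 and 3.75%, 0.605% and 0.649% in db/m replicates 1 to 3. A list of 20 genes of the acinar cells, which make digestive enzymes, took 68.1%, 64.6% and 63.1% in db/db mice against 47.4%, 57.4% and 61.0% in db/m mice. The libraries thus held endocrine RNA among a larger amount of acinar RNA. The study used insulin staining to check that its islets for RNA-seq were free of acinar cells, and reports mostly positive cells. That is a measure of cells and not of RNA. The db/m replicate 1 library stood apart with the highest insulin share and the lowest acinar share, and the db/db replicate 1 library had the lowest insulin share. In bulk islets, fewer cells of a type and less RNA per cell cannot be told apart.

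β cells store insulin and release it in response to glucose. Under lasting metabolic stress they can lose the genes of mature β cells and express genes that are silent in them, a state called dedifferentiation. Neurog3 is the transcription factor that starts the endocrine programme in the embryonic pancreas and is almost silent in adult islets. Aldh1a3 is an aldehyde dehydrogenase that oxidises retinaldehyde to retinoic acid, and its protein is used to mark failing β cells. Cck encodes cholecystokinin, a hormone of the upper intestine, and Gast encodes gastrin, a hormone of the stomach. Both peptides end in the same amidated residues and share a receptor, and gastrin is also made in the fetal pancreas.

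The promoters of the members are shown because the E-box (CANNTG, read the same on both strands) is the motif that Neurog3 and its relative Neurod1 bind. The 250 bases before the RefSeq start of each gene were read on the strand of the gene from GRCm38.p6, with E-boxes in capitals. RefSeq promoter entries matched 3 of the 4 members, and Aldh1a3 is named only. The windows are chr9:121495695-121495944 (minus strand) for Cck, chr11:100334157-100334406 (plus strand) for Gast and chr10:62132840-62133089 (plus strand) for Neurog3.
Cck promoter: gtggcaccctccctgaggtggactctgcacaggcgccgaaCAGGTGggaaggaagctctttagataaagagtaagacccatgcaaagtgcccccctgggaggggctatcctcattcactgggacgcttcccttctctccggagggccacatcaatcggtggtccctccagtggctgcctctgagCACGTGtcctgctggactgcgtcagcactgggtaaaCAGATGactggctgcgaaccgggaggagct
Gast promoter: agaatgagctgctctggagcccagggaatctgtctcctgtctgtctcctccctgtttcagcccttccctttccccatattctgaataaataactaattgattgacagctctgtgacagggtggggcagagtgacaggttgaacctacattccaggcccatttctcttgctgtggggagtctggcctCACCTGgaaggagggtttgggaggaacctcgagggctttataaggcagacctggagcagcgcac
Neurog3 promoter: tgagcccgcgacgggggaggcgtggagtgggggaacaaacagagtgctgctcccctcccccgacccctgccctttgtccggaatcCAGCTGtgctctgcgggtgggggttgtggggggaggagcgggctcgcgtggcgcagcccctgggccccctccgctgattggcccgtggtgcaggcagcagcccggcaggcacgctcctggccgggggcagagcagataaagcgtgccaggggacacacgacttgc
The Cck window held 3 E-boxes, CAGGTG from -210, CACGTG from -66 and CAGATG from -30, counted back from the start of the gene. The Gast window held 1, CACCTG from -64, and a TATAA from -26 to -22. The Neurog3 window held 1, CAGCTG from -165. Of 32851 promoter windows of the same length, 66.2% held at least 1 E-box, with a median of 1, and 22.8% held TATAA on either strand. The windows had a GC content of 60% for Cck, 53.2% for Gast and 71.2% for Neurog3. A match is a description of the letters only.

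Aldh1a3 lies at chr7:66390890-66427517 on the minus strand of GRCm38 (GENCODE), where no other gene overlaps it. Its counts were 65, 219 and 248 in db/db replicates 1 to 3 and 13, 1 and 1 in db/m replicates 1 to 3. In CPM, counts scaled to a common library size with TMM factors that correct for a few genes taking much of a library, its levels were 5.22, 13.1 and 16.7 CPM in db/db mice versus 0.477, 0.0582 and 0.0541 CPM in db/m mice. The lowest db/db mouse lay above the highest db/m mouse, which was the replicate with the most endocrine RNA. The means were 11.7 ± 5.86 CPM (SD, n = 3) and 0.197 ± 0.243 CPM (SD, n = 3), and the fitted log2 fold change was 5.67 (standard error 0.73). From summed counts (532 against 15), the ratio of the rates was 50.6, with an exact 95% interval of 30.4 to 91.1 that covers counting error only. Without db/m replicate 1, which held 13 of the 15 control counts, the log2 fold change was 7.54. Aldh1a3 shares 1.15% of its 50-base stretches with other genes.

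Neurog3 lies at chr10:62133090-62134763 on the plus strand. Its counts were 2, 16 and 11 in db/db mice versus 2, 1 and 2 in db/m mice, or 0.161, 0.957 and 0.740 CPM against 0.0734, 0.0582 and 0.108 CPM. On the CPM scale the groups did not overlap, but the raw count of db/db replicate 1 equalled those of db/m replicates 1 and 3. In CPM of the plain library total, without TMM factors, db/db replicate 1 (0.0970) lay below db/m replicates 1 (0.128) and 3 (0.105). The means were 0.619 ± 0.412 CPM (SD, n = 3) and 0.0800 ± 0.0257 CPM (SD, n = 3). The fitted log2 fold change was 2.88 (standard error 0.87), from a fit in which Neurog3 was kept although it had too few counts for the filter. The ratio of the rates from 29 against 5 counts was 8.28 (exact 95% interval from 3.17 to 27.4, counting error only). Fam241b (2010107G23Rik in the count table), on the opposite strand, shares 273 exon bases with Neurog3 and 13.3% of its 50-base stretches. Whether the counting used strand is not given in the sources used here, and without strand the reads there cannot be told apart. Fam241b had 1.85, 2.57 and 2.82 CPM in db/db mice versus 2.61, 1.75 and 2.003 CPM in db/m mice, so its level overlapped between the groups.

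Cck lies at chr9:121489824-121495694 on the minus strand. It had 23, 158 and 29 counts in db/db mice, whereas each db/m mouse had 0 counts. Its levels were 1.85, 9.45 and 1.95 CPM in db/db mice (mean 4.41 ± 4.36 CPM, SD, n = 3). A count of 0 allows a level of up to 0.110, 0.175 and 0.162 CPM in db/m replicates 1 to 3, taken as 3 counts per library. Each db/db mouse lay above these limits, and the mean was at least 29.6-fold higher than their mean (a log2 bound of 4.89). Most of the reads came from db/db replicate 2, and without it the log2 bound was 3.67.

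Gast lies at chr11:100334407-100336996 on the plus strand. It had 2, 8 and 2 counts in db/db mice versus 0, 0 and 1 counts in db/m mice, or 0.161, 0.478 and 0.134 CPM against 0, 0 and 0.0541 CPM. Only db/db replicate 2 exceeded the limit of 3 counts, so that in the other 5 mice Gast was at or near the edge of detection at this depth. The ratio of the rates, 12 against 1 counts, was 17.1 with an exact 95% interval from 2.53 to 732 (counting error only). On the log2 scale this ratio was 4.10, and it was 3.21 without db/db replicate 2 and 3.30 without db/m replicate 1. The fitted log2 fold change was lower, at 3.54 (standard error 1.26), from a fit in which Gast was kept below the filter. No 50-base stretch of Cck or Gast is shared with another gene.

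**Figure D1:**
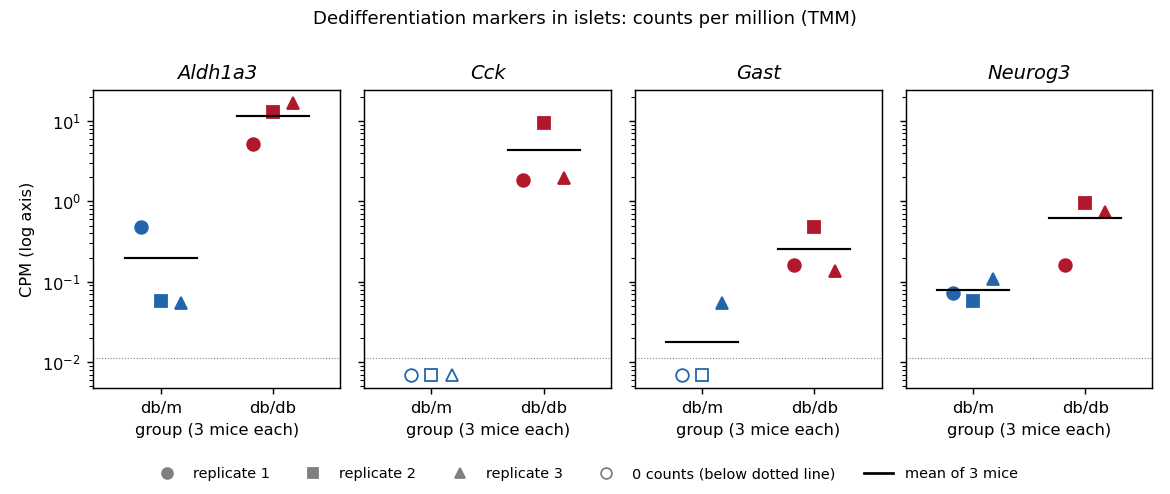
CPM (TMM factors, log axis) of the 4 markers in each mouse, with db/m in blue and db/db in red, a symbol shape per replicate number, open symbols below the dotted line for 0 counts, and a bar at the mean of 3 mice. For each marker the db/db mice lie above the db/m mice, by the widest margin for Aldh1a3 and Cck, while Gast and Neurog3 stay under 1 CPM.

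For all 4 markers, each db/db mouse lay above each db/m mouse in CPM. Such a pattern was found in 5.73% of the 23506 genes with at least 1 count (1347 genes), and nothing is read from the members' count, since they were chosen on this contrast. The mouse with the highest level was db/db replicate 2 for Cck, Gast and Neurog3 and db/db replicate 3 for Aldh1a3. Relative to Aldh1a3, the level of Cck varied more between the db/db mice, with a coefficient of variation of 98.7% against 50.3%, and those of Gast (74.3%) and Neurog3 (66.5%) lay between.

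Levels of different genes were compared as CPM per kb of exon, which sets a long and a short transcript on the same scale. In db/db mice Cck had 3.38 ± 3.34, Aldh1a3 2.53 ± 1.27, Gast 0.560 ± 0.416 and Neurog3 0.370 ± 0.246 CPM per kb (SD, n = 3). Cck and Aldh1a3 did not differ beyond their spread, and neither did Gast and Neurog3. Cck was the highest of the members in db/db replicates 1 (1.41 CPM per kb) and 2 (7.24), whereas Aldh1a3 was the highest in replicate 3 (3.61). In db/m mice no member exceeded 0.118 CPM per kb in any mouse. The hormones of adult islets were far above the markers in db/db mice on the same scale, with 2576 ± 1087 CPM per kb for Ins2, 431 ± 178 for Ins1 and 250.1 ± 94.3 for Gcg, the glucagon gene (SD, n = 3). Expression of the members was therefore low against that of the main islet hormones, even in the mice where they were highest.

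To set the markers against the endocrine RNA of each library, their counts were divided by the summed counts of 12 pan-endocrine genes (Chga, Chgb, Syp and others), which were 4210, 17932 and 11625 in db/db mice against 82828, 26084 and 17161 in db/m mice. Per 1000 of these counts, Aldh1a3 had 15.4, 12.2 and 21.3 in db/db mice versus 0.157, 0.0383 and 0.0583 in db/m mice. The groups did not overlap, and the ratio of the means was 193. Cck had 5.46, 8.81 and 2.49 per 1000 in db/db mice, and their mean of 5.59 was at least 51.4-fold higher than the mean of the limits that 0 counts allow in db/m mice. Neurog3 had 0.475, 0.892 and 0.946 against 0.0241, 0.0383 and 0.117, a ratio of 12.9, and here db/db replicate 1 also lay above each db/m mouse. The value of db/db replicate 1 rested on 2 Neurog3 counts and those of the db/m mice on 2, 1 and 2, each below the limit of 3 counts. Gast had 0.475, 0.446 and 0.172 against 0, 0 and 0.0583. The spread between db/db mice was smaller on this scale than in CPM for each member, with coefficients of variation of 28.3% for Aldh1a3, 56.5% for Cck, 45.9% for Gast and 33.4% for Neurog3. With Chga alone as the reference it was smaller than in CPM for Cck (62.2%) and Neurog3 (16.7%) but not for Aldh1a3 (51.8%) and Gast (83.1%). Per 1000 counts on Ins1 and Ins2, Aldh1a3 had 2.60, 2.59 and 3.76 in db/db mice against 0.0222, 0.0102 and 0.00810 in db/m mice. The pan-endocrine list itself had a median log2 fold change of -1.09, and 1 of its 12 genes fell at the adjusted threshold (5 by DESeq2, and 6 were lower at the unadjusted threshold), with Chga at -2.10 and Chgb at 0.03, and with Chga alone as the reference the ratios were 439 for Aldh1a3, at least 105-fold for Cck and 24.1 for Neurog3.

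**Figure D2:**
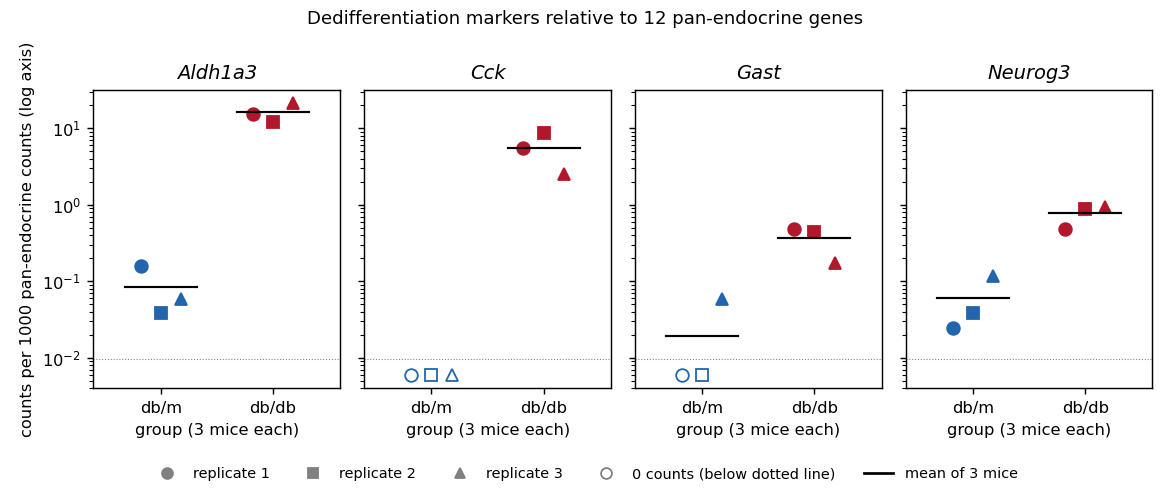
Counts of each marker per 1000 counts on 12 pan-endocrine genes (log axis) in each mouse, with colours, symbols and bars as in the plot of CPM. Aldh1a3 lies between 12.2 and 21.3 in db/db mice but at or below 0.157 in db/m mice, and the db/db mice lie closer together than in CPM.

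Other genes of the pathways around the 4 markers were tested with edgeR's quasi-likelihood test, with p-values adjusted over all 12760 tested genes (Benjamini-Hochberg). The lists of these genes were chosen with earlier results of these data known, so they were not fixed beforehand. Over all genes, 0.133% were called higher and 0.486% lower in db/db mice at an adjusted p under 0.05, and 5.04% were higher and 9.89% lower at an unadjusted p under 0.05. Of 130 listed genes in 8 lists, 98 were tested. At the adjusted threshold 0 rose and 6 fell, and at the unadjusted threshold 7 were higher and 28 lower. In fits of 5 mice there were 1, 0 and 0 calls without db/db replicates 1, 2 and 3 and 3, 1 and 15 without db/m replicates 1, 2 and 3, and there were 0 under the replicate block. As each mouse was left out, the log2 fold change lay between -2.52 and -3.14 for Neurod1 and between -3.85 and -4.86 for Slc30a8. DESeq2 called 22 of the listed genes, 1 higher and 21 lower. By DESeq2, the lists without a call were the genes upstream of Neurog3, the retinoid pathway, the other gut and islet hormones and the disallowed genes.

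The list of other dedifferentiation markers held 9 genes, of which 4 were tested. At the adjusted threshold 0 of them were called, and at the unadjusted one 2 were higher, with a median log2 fold change of 0.87 against -0.00093 over all tested genes. Serpina7, the thyroxine-binding globulin, had 70, 243 and 66 counts in db/db mice versus 38, 46 and 8 in db/m mice (log2 fold change 2.46 with a standard error of 0.65, edgeR adjusted p = 0.122), and it was the 1 listed gene that DESeq2 called higher. Gc, the vitamin D-binding protein, had 100, 402 and 242 counts against 285, 26 and 72 (log2 fold change 1.59 with a standard error of 0.63, edgeR adjusted p = 0.280), and its counts overlapped between the groups. Cd81 and Txnip, also tested, had log2 fold changes of 0.16 and -0.40 (edgeR adjusted p = 0.777 and 0.642), with overlapping groups. The pluripotency genes Pou5f1 and Nanog had 0 counts in each mouse, and Sox2 had 1 count in db/m replicates 1 and 2. Slc5a10, a sugar transporter, was read in db/db replicate 2 only, with 37 counts.

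Genes upstream of Neurog3 in development, the Notch pathway and the factors that switch Neurog3 on, passed the filter in 13 of 13 cases and had a median log2 fold change of 0.22. At the adjusted threshold 0 were called, and Glis3, an activator of Neurog3, was the 1 gene at an unadjusted p under 0.05 (log2 fold change -1.41 with a standard error of 0.46, edgeR adjusted p = 0.197). Sox9, a factor of pancreatic progenitors and ducts, had a log2 fold change of 0.53 (adjusted p = 0.483) and Hes1, the Notch target that represses Neurog3, one of -0.40 (adjusted p = 0.698). These directions were not stable, since Sox9 was at -0.0079 with library size alone and Hes1 at 0.17 without db/m replicate 2.

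Among the targets and partners of Neurog3, 11 of 13 tested genes had log2 fold changes below 0. The list held 17 genes, 1 fell at the adjusted threshold (6 by DESeq2), 7 were lower at the unadjusted one, and the median log2 fold change was -1.53. Neurod1, the factor that Neurog3 switches on and that mature β cells need, had 17, 55 and 48 counts in db/db mice against 680, 384 and 171 in db/m mice. The groups did not overlap, and Neurod1 fell by 2.83 on the log2 scale (edgeR adjusted p = 0.0349, standard error 0.46). Across 14 alternatives the adjusted p lay between 2.0e-08 and 0.149, with 0.145 under the replicate block. Pax6 and Isl1, factors of all islet endocrine cells, had log2 fold changes of -2.28 and -2.29 (adjusted p = 0.0866 and 0.113) and Rfx6, which acts after Neurog3, one of -1.53 (adjusted p = 0.138). A fit with a score of the acinar genes as a covariate gave -2.03 for Neurod1, -1.22 for Pax6, -1.52 for Isl1 and -0.82 for Rfx6. Pax4, an early target, had 0 counts in each mouse. Per kb of exon Neurod1 had 0.963 CPM in db/db mice versus 6.91 CPM in db/m mice, above Neurog3 in both groups.

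In the retinoid pathway, where Aldh1a3 acts, 10 of 20 genes were tested, with 0 called at the adjusted threshold, 3 higher and 0 lower at the unadjusted one, and a median log2 fold change of 0.17. Aldh1a1, which makes retinoic acid like Aldh1a3, had 340, 441 and 539 counts in db/db mice versus 253, 223 and 398 in db/m mice (log2 fold change 1.04 with a standard error of 0.33, edgeR adjusted p = 0.181). The raw counts overlapped, but in CPM with TMM factors the db/db mice (27.3, 26.4 and 36.2) lay above the db/m mice (9.29, 13.0 and 21.5). The size depended on the scaling, with a log2 fold change of 0.57 with library size alone. It was 0.63 with a score of the acinar genes as a covariate. Aldh1a2, the third enzyme of this kind, had 0, 3 and 6 counts against 5, 0 and 4 and was not tested. Per kb of exon, Aldh1a1 stood at 6.07 CPM in db/db mice versus 2.96 CPM in db/m mice, so that it was above Aldh1a3 (2.53 and 0.0426 CPM) in both groups. Dhrs3, which reduces retinaldehyde to retinol, and Rxrb, a retinoid X receptor, had log2 fold changes of 0.76 (adjusted p = 0.221) and 0.78 (adjusted p = 0.232). These were 0.23 and 0.26 with library size alone, and 0.54 and 0.68 with the acinar covariate.

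Among receptors of cholecystokinin and gastrin and the enzymes that process such prohormones, 10 of 11 genes were tested, 1 fell at the adjusted threshold (2 by DESeq2), 4 were lower at the unadjusted one, and the median log2 fold change was -0.62. Cckar, the cholecystokinin receptor, had 6726, 6867 and 5494 counts in db/db mice against 4662, 5416 and 7762 in db/m mice, which overlapped (log2 fold change 0.54, adjusted p = 0.519 from edgeR). Its log2 fold change was 0.041 with library size alone and -0.10 with the acinar score as a covariate. Which cells held the Cckar reads was not tested. Cckbr, the receptor of both hormones, had 24, 17 and 9 counts against 26, 36 and 44 (log2 fold change -0.62, adjusted p = 0.649 from edgeR). Pcsk1, the convertase that cuts proinsulin and other prohormones, had 84, 275 and 236 counts against 3963, 1028 and 1138. It fell by 2.77 on the log2 scale (edgeR adjusted p = 0.0414, standard error 0.46), with adjusted p-values between 1.9e-08 and 0.200 over 14 alternatives and 0.200 under the replicate block. Pcsk2, the other main convertase, had a log2 fold change of -1.73 (adjusted p = 0.163), Cpe, which trims the cut peptides, one of -1.09 (adjusted p = 0.273), and Pcsk1n, an inhibitor of Pcsk1, one of -1.60 (adjusted p = 0.317) that was -0.47 without db/m replicate 1. The fit with the acinar covariate gave log2 fold changes of -1.74 for Pcsk1, -0.54 for Pcsk2, -0.20 for Cpe and 0.43 for Pcsk1n. Cck and Gast had more reads in the group where Pcsk1 had fewer.

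Of 14 other gut and islet hormones 5 were tested, with 0 called at the adjusted threshold and a median log2 fold change of -0.73. Gcg and Sst, the somatostatin gene, had log2 fold changes of -0.51 (adjusted p = 0.736) and -0.73 (adjusted p = 0.675), and both had a positive sign without db/m replicate 1 (0.67 and 0.95). Vip, a neuropeptide, had 16, 0 and 1 counts in db/db mice versus 487, 73 and 205 in db/m mice (log2 fold change -4.73, adjusted p = 0.0778 from edgeR) and was the 1 gene of the list at an unadjusted p under 0.05. Of genes that are made by enteroendocrine cells like Cck, Gip, Nts, Sct and Tph1 had 0 counts in each mouse. Pyy, which islets also make, had 268, 831 and 494 counts against 3501, 251 and 270 (log2 fold change -0.60), and its groups overlapped. Ghrl had 2, 0 and 2 counts against 9, 1 and 3, and Tac1 had 0, 0 and 1 against 41, 12 and 7.

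Disallowed genes, which β cells normally keep silent, were tested in 24 of 26 cases. At the adjusted threshold 0 were called, 19 of the 24 had log2 fold changes above 0 and the median was 0.53. The median was -0.00093 over all tested genes, 0.71 for the acinar list and 0.53 for a list of duct genes. Which cells held the reads of the disallowed genes was not tested. Ldha, lactate dehydrogenase, had a log2 fold change of 0.77 (adjusted p = 0.239) and Parp3 one of 1.38 (adjusted p = 0.246), and they were the 2 genes of the list at an unadjusted p under 0.05. Their log2 fold changes were 0.21 and 0.74 with library size alone. With the acinar score as a covariate they were 0.28 and 1.72. Mature β-cell genes had log2 fold changes below 0 in 19 of 19 tested cases, with a median of -2.02, and 4 fell at the adjusted threshold (13 by DESeq2). Slc30a8, the zinc transporter of insulin granules, had 26, 160 and 118 counts in db/db mice against 6856, 2017 and 1392 in db/m mice and fell by 4.49 on the log2 scale (standard error 0.64, with an edgeR adjusted p = 0.0246 that was 0.110 under the replicate block). Slc2a2, the glucose transporter, fell by 4.33 (adjusted p = 0.0315, 0.132 under the block), and the transcription factors Nkx6-1 and Mafa fell by 3.37 (adjusted p = 0.0473, 0.213 under the block) and 5.70 (adjusted p = 0.0489, 0.150 under the block). Without db/m replicate 1 the log2 fold changes were -3.85 for Slc30a8, -3.25 for Slc2a2, -2.64 for Nkx6-1 and -4.48 for Mafa, and without db/db replicate 2 that of Mafa was -8.23. Over 14 alternatives their adjusted p reached 0.119 for Slc30a8, 0.154 for Slc2a2, 0.213 for Nkx6-1 and 0.207 for Mafa. Ins1 had a log2 fold change of -2.88 (adjusted p = 0.0870) and Ins2 one of -1.23 (adjusted p = 0.388), which were -1.90 and -0.37 without db/m replicate 1. Under the acinar covariate the values were -3.17 for Slc30a8, -2.80 for Slc2a2, -1.96 for Nkx6-1 and -3.86 for Mafa. For Ins1 and Ins2 they were -1.37 and 0.13.

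**Figure D3:**
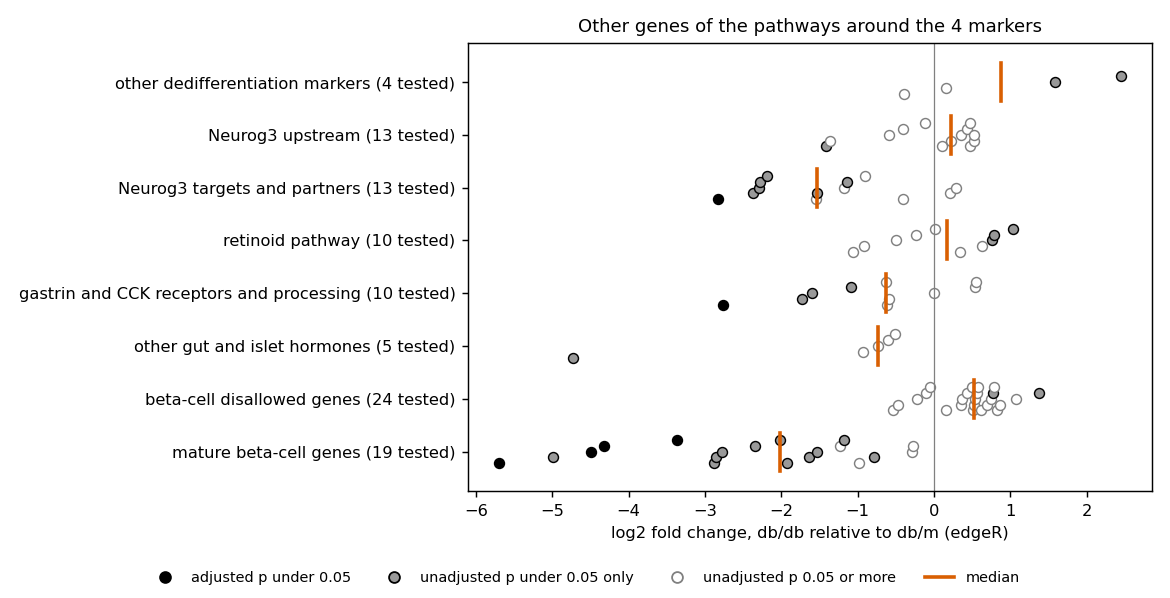
Log2 fold changes (db/db relative to db/m, edgeR) of the tested genes in 8 lists, members left out, with black points at an adjusted p under 0.05, grey points at an unadjusted p under 0.05 only, open points for the rest and an orange bar at each median. The mature β-cell genes lie below 0 with a median of -2.02 and the targets and partners of Neurog3 at -1.53. The other dedifferentiation markers have a median of 0.87, from only 4 tested genes with 0 called at the adjusted threshold.

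Markers of other cells that the preparation could hold are given beside the members, and their part in the members' difference was not tested. All 20 acinar genes had log2 fold changes above 0 (median 0.71, 0 called by edgeR at the adjusted threshold and 2 by DESeq2, 1 at the unadjusted one), and their summed level was 651102 to 1126512 CPM in db/db mice versus 272184 to 628005 CPM in db/m mice. TMM factors rescale the library size, so that such a sum can exceed the number of reads that CPM refers to. With the acinar score as a covariate the log2 fold change was 8.05 for Aldh1a3 and 3.72 for Neurog3. The acinar sums did not overlap between the groups, so the covariate is tied to genotype. Values under it, for these and other genes, cannot tell acinar RNA and genotype apart. The 8 non-β endocrine genes summed to 370.7 to 761 CPM in db/db mice versus 259.5 to 1647 CPM in db/m mice, with 0 of 4 tested genes called at either threshold. The summed level of the 8 duct genes was 169 to 218 CPM against 111 to 177 CPM, with 2 genes higher and 1 lower at the unadjusted threshold. Stroma summed to 36.8 to 68.2 CPM against 4.72 to 49.3 CPM, with 6 of 6 tested genes above 0 (median log2 fold change 1.33) and 0 called by edgeR at the adjusted threshold. Lum, a proteoglycan of connective tissue, was the 1 gene at an unadjusted p under 0.05 and was called higher by DESeq2. Endothelial genes summed to 12.04 to 23.9 CPM against 13.5 to 43.2 CPM, with 1 gene lower at the unadjusted threshold. Leukocyte genes summed to 23.3 to 90.0 CPM against 6.12 to 103.7 CPM, with Lyz2 the 1 gene at an unadjusted p under 0.05. Genes of glia and nerve summed to 2.15 to 2.41 CPM against 5.04 to 13.4 CPM, where the neuronal tubulin Tubb3 fell by 2.94 on the log2 scale (adjusted p = 0.0418 from edgeR, 0.0952 under the replicate block and up to 0.189 over 14 alternatives).

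Since Cck is a gene of the intestine and Gast of the stomach, the markers of these epithelia are also given. Their part in the reads of both genes was not tested. Of 9 intestinal genes, Fabp1, Fabp2, Sis, Apoa4 and Cdx1 had 0 counts in each mouse, and the list summed to 2.17 to 5.86 CPM in db/db mice versus 6.12 to 21.1 CPM in db/m mice. Nearly all of this came from Vil1, a protein of microvilli, which had 25, 95 and 60 counts against 573, 116 and 109. It was the 1 tested gene of the list and was lower in db/db mice at the unadjusted threshold (log2 fold change -1.52). Of 8 gastric genes, Gkn1, Gkn2 and Tff1 had 0 counts in each mouse. The gastric list summed to 159 to 382 CPM in db/db mice versus 279.7 to 399 CPM in db/m mice, nearly all from Tff2, which was read 2564 to 4729 times in db/db mice versus 4999 to 7561 times in db/m mice. Pgc, which encodes pepsinogen C of the gastric chief cells, had 13, 37 and 20 counts in db/db mice versus 0, 1 and 0 in db/m mice and rose with a fitted log2 fold change of 6.05 (edgeR adjusted p = 0.0342, standard error 0.96), a value that depends on the prior count. Its adjusted p lay between 1.2e-04 and 0.148 over 14 alternatives and was 0.132 under the replicate block, and its log2 fold change was 7.81 without db/m replicate 2 and 5.44 without db/m replicate 1. Muc6, a mucin of gastric glands, had 10, 46 and 10 counts against 0, 0 and 6 and was not tested. Both were highest in db/db replicate 2, as were Cck, Gast and Neurog3. Of the db/db libraries, that one also held the most pan-endocrine counts (17932 against 4210 and 11625). Atp4a, the proton pump of gastric parietal cells, had the opposite direction, with 0, 13 and 12 counts against 60, 15 and 19 (log2 fold change -1.34, unadjusted p above 0.05), and Tff2 had a log2 fold change of -0.24.

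**Figure D4:**
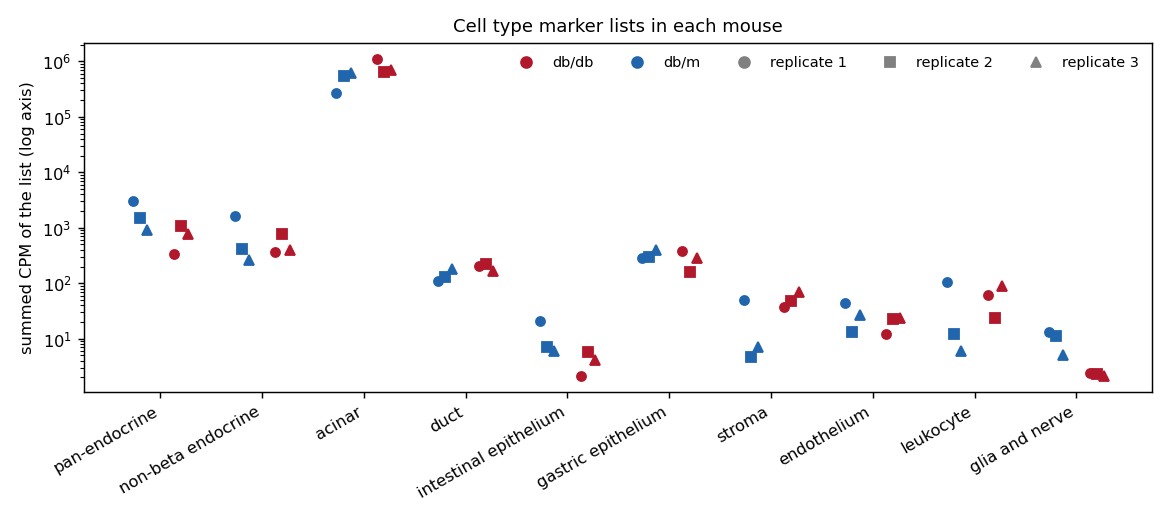
Summed CPM (log axis) of 10 cell type marker lists in each mouse, with db/m in blue, db/db in red and a symbol shape per replicate number. The acinar list exceeds each other list in each mouse, and the intestinal list stays at or below 21.1 CPM.

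The genes with the patterns most like those of the members were ranked by Pearson's r of log2(CPM + 1) over the 6 mice, among 11557 tested genes with a mean of at least 1 CPM, as a description. For Aldh1a3 they were Nr1h2, the liver X receptor β (r = 0.997, n = 6), Sox12 (r = 0.991, n = 6) and Coro1b (r = 0.989, n = 6). The level of Nr1h2 was 20.6, 23.0 and 23.5 CPM in db/db mice versus 15.7, 15.3 and 14.9 CPM in db/m mice, so the likeness is of shape and not of size. For Cck they were Stard5 (r = 0.993, n = 6), LOC102634840 (r = 0.991, n = 6) and Clec11a (r = 0.989, n = 6). LOC102634840 had 14, 100 and 20 counts in db/db mice against 1, 4 and 0 in db/m mice, with the same peak in db/db replicate 2 as Cck. Values of a library share its depth and scaling, and with 6 mice high values of r were common, as 100 genes had an r of at least 0.9 with Aldh1a3 and 79 with Cck.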

How the data were processed

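Whole-transcriptome libraries of mouse islets (3 db/db, 3 db/m) were sequenced after rRNA depletion. The authors trimmed the reads, mapped them to mm10 (GRCm38) with TopHat per the methods, while the submitters' processing notes name HISAT2 2.0.4, and deposited raw counts per gene symbol, 1 column per mouse, with no normalization. The counting program, the annotation and the use of strand are not given in the sources used here. Samples were grouped by the genotype in the labels.

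The deposited counts were fitted by edgeR 4.0.16 under R 4.3.3 (filterByExpr, TMM factors, quasi-likelihood F-test, Benjamini-Hochberg adjustment over 12760 genes, threshold 0.05). Each standard error is the size of a log2 fold change over the root of its F statistic. Gast and Neurog3 were kept in the fit below the filter. Intervals (95%) were exact, and the floor was 3 counts per library. Both cover counting error only. The members and lists were chosen with earlier results of these data known. Named genes are the 4 members, per pathway list the genes past the adjusted threshold and, up to 4 per list, those with the smallest unadjusted p under 0.05, direct counterparts of a member, and for each member past the filter the 3 genes most like it. Genes of the cell type lists, genes at 0 and some further listed genes were named after their values were seen. Alternatives were DESeq2 1.42.0, other normalizations and filters, an acinar covariate, the replicate block, endocrine scaling and leaving out each mouse. Sequences came from RefSeq (GRCm38.p6) and positions from GENCODE, read with Python 3.11.15. In simulated data with 200 changed genes the calls were compared with the known answers, and the outcome is not given here. CircRNA data were not used here.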

Additional observations from a re-analysis of the deposited data

How the results depend on the processing

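The members were chosen on this contrast, so that their direction, the same in each alternative that gave a value, is no sign of stability. The log2 fold change of Aldh1a3 was 5.06 with library size alone, 8.05 with the acinar covariate and 7.32 with endocrine scaling, and leaving out each mouse gave 5.28 to 7.54. For Neurog3 these values were 2.45, 3.72 and 3.97, and 2.42 to 3.32. The Cck bound was 3.67 to 5.26 when each mouse was left out. The Gast ratio was 3.50 with library size alone, 5.49 with endocrine scaling and 3.21 to 4.44 when each mouse was left out, with no value without db/m replicate 3, where Gast then had 0 control counts. Per pan-endocrine counts, the log2 values of 7.59, 5.68 and 3.69 for Aldh1a3, Cck and Neurog3 became 8.78, 6.71 and 4.59 with Chga as the reference, and leaving out mice gave 7.25 to 8.40 for Aldh1a3 and 3.32 to 4.63 for Neurog3. The Cck bound and the Gast ratio were not computed for the fits with a covariate or block. Over all genes 79 were called (17 higher, 62 lower), against 707 by DESeq2 (148 and 559), 21 with library size alone (6 and 15), 52 with upper-quartile factors, 888 with every gene of at least 1 count (149 and 739), 52 with the acinar covariate (19 and 33) and 10 to 333 without 1 mouse. The listed calls, 6 of them, became 22, 0, 2 and 32 under the first 4 of these, and 0 to 15 without 1 mouse. Endocrine scaling raised the median log2 fold change of all genes to 1.30 and library size alone lowered it to -0.59. Signs turned for Sox9 (-0.0079 with library size alone), under the acinar covariate for Pcsk1n (0.43), Cckar (-0.10), Sox9 (-0.062), Ins2 (0.13), Gcg (1.35) and Sst (1.62), without db/m replicate 1 for Gcg (0.67) and Sst (0.95), and without db/m replicate 2 for Hes1 (0.17). Leaving out each mouse gave -0.92 to 0.67 for Gcg, -1.14 to 0.95 for Sst and -0.63 to 0.17 for Hes1. For single named genes and the split of all calls, 346 values kept their side of the threshold or their size, 63 lost a call in the same direction, 22 gained one, 21 counts moved and 10 signs turned. The cause was not tested.

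The labels number the mice. Mice of the same number deviated from their groups in opposite directions, with correlations of -0.53, -0.20 and -0.32 over 12760 genes. Deviations within a group are tied to each other through its mean, so these values cannot decide whether the numbers pair the mice. With the replicate block 16 genes were called (4 higher, 12 lower) and 0 of the listed genes, and the log2 fold changes of Aldh1a3 and Neurog3 were 5.69 and 2.60. Counts limit Gast and Neurog3 most, with at most 8 and 16 in a library.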
